A study of Mus musculus with 48 samples.

Results

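The following 10 selenoprotein genes outside the glutathione peroxidase and thioredoxin reductase families were examined in liver and colon: Selenop, Dio1, Msrb1, Selenow, Selenoh, Selenom, Selenof, Selenok, Selenos and Selenot. They were found as every array probe whose accession carries one of these symbols in the RefSeq gene table, with the older names Sepp1, Sepw1, Sep15, Selk, Selm, Sels or Vimp, and Selt counted as the same genes. This gave 11 probes for the 10 genes, out of 41174 probes that are not controls and 18434 named genes. Each gene had 1 probe apart from Selenot, which had 2 and is described by the brighter one. Every probe was well above background in the mouse channel on all 24 arrays of each tissue, apart from Dio1, which was so on 23 liver arrays and had no value on the other (mouse 6 of HL, whose spot failed the scanner's quality calls). No spot of these genes was saturated.

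Selenoproteins carry selenium as the amino acid selenocysteine, which is inserted at a UGA codon that would otherwise end the protein. The liver makes selenoprotein P (Selenop), which is secreted and carries selenium in the blood to other tissues, and it also makes the deiodinase Dio1, which converts thyroxine to the active thyroid hormone. When selenium is short, cells supply some selenoproteins before others, and the messages of the less favoured ones tend to be degraded. Selenof, Selenok, Selenom, Selenos and Selenot lie in the endoplasmic reticulum (ER), the compartment in which secreted and membrane proteins fold.

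The mice were of the strain C57/BL6 and were killed at 12 weeks of age. They were born to dams on a high-fat diet that was either supplemented with (H) or marginally deficient in (L) selenium and folate together. The paper gives diet H as above the recommended requirement for both nutrients and diet L as below it. In the group names the first letter is the diet of the dam, during gestation and lactation, and the second is the diet of the offspring from weaning, so that HH, HL, LH and LL cross both diets and every group ate high-fat food. Selenium and folate changed together, and no group separates them. Each tissue was measured on 24 two-colour arrays, 6 per group, with mouse RNA in Cy3 and 1 common reference RNA in Cy5 on every array. In liver the labels give 2 HH arrays the same mouse, so these were averaged, and liver rests on 5 HH mice and 6 mice of each other group. Colon rests on 6 mice per group. Values are the log2 ratio of mouse over reference RNA of a probe, so 0 is the level of the reference. The deposited description of the reference is a whole pregnant mouse with foetus, whereas the paper names pooled intestinal and liver RNA, so a ratio is used here only to compare mice. In whole tissue RNA, fewer cells of a type and less RNA per cell cannot be told apart.

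Each slide held 1 array of every diet group of 1 tissue, so that the replicate number is also the slide. The slides of colon replicates 5 and 6 stood apart from the other 4 colon slides: on the first principal component of 25503 probes, which held 34.6% of the variance around the group means, 96.5% of the spread lay between slides, and all 8 mice of these 2 slides lay on one side of the other 16. In liver the first component held 25.4% of the variance and 46.1% of its spread lay between slides. All liver arrays were scanned on one day and all colon arrays on another, so tissue, slide and scan day cannot be told apart. Xist, which is made from the inactive X of females, lay over 1.5 log2 units above the tissue's median in 2 liver mice (HL 2 and LL 6) and 6 colon mice (HH 1, HH 5, HL 5, LL 1, LL 3 and LL 5), although the study describes males. The Y-linked gene Eif2s3y had a log2 Cy3 signal of 6.29 to 7.37 in liver HL 2 and colon HL 5, LL 1 and LL 3. In liver LL 6 and colon HH 1, HH 5 and LL 5 it was 10.09 to 11.17, within the range of the arrays without Xist (9.78 to 11.55). The tissue labels held against marker genes: all 6 hepatocyte markers were called higher in liver, and 8 of 9 colon epithelium markers and 5 of 5 smooth muscle markers were called lower in liver. 3 mice stood out in a list of cell type markers, namely liver HL 1 (4 pancreatic acinar genes, mean ratio 1.09), liver LH 4 (4 adipocyte genes, 1.84) and colon LL 4 (4 Kupffer macrophage genes, 0.30), where the rest of their groups had means below 0 for these lists. Colon LL 4 also had the highest means of the immune (1.49), erythroid (-1.58) and hepatocyte markers (-3.32) among the colons. Its hepatocyte mean lay below that of every liver (1.37 or more), and the source of these signals was not tested. The 4 adipocyte markers also varied among the colons, with means of -1.42 (LL 6), -1.27 (LH 2), -0.07 (LL 2) and 0.52 (HL 6) against 1.59 to 3.34 in the others. None of the 4 had an unadjusted p under 0.05 in a colon diet comparison, and their part in the colon results was not tested.

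The sequence just around the annotated starts of the genes with the largest tissue differences, Selenop and Selenom, and of those with the lowest p-values in the liver diet comparisons, Selenow and Selenos, follows from RefSeq (GRCm38.p6), each window running from 250 bases before the start to 50 after it. Capitals mark matches on either strand to the TATA box (TATAAA), the CCAAT box, the core of the antioxidant response element (TGACNNNGC) or the sequence ACGTG. Both ER stress elements were searched too, the first as CCAAT and CCACG with 9 bases between them and the second as ATTGG and CCACG with 1 base between them, so that they overlap the CCAAT box. Selenop has 3 annotated starts, of which the window with the TATA box is shown (chr15:3270727-3271026, plus strand). The others are Selenom (chr11:3514434-3514733, plus strand), Selenow (chr7:15922322-15922621, minus strand) and Selenos (chr7:66079399-66079698, plus strand).
Selenop: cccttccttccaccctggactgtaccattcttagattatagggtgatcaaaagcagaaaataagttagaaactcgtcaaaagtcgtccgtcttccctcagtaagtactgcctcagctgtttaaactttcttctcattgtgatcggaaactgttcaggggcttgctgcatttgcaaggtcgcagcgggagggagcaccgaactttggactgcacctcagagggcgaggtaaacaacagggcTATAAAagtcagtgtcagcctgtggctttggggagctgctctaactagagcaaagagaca
Selenom: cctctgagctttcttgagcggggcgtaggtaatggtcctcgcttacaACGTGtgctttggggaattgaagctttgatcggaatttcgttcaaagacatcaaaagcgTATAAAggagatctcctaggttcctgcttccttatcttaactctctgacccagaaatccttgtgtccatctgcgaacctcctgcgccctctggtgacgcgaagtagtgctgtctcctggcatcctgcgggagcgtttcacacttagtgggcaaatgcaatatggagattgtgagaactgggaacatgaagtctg
Selenow: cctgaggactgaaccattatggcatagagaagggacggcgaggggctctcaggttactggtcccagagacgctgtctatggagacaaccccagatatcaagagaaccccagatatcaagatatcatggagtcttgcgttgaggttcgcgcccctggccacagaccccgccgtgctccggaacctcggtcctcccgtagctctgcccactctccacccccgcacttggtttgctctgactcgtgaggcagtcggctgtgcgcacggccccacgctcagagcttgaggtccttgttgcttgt
Selenos: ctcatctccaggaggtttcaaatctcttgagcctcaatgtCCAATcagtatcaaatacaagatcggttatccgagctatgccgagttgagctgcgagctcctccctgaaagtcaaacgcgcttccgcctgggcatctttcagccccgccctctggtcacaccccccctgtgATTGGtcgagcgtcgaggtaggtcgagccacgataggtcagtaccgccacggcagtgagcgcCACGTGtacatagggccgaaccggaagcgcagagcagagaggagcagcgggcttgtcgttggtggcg

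The TATA box occurred in windows of 4 of the 10 genes (Selenop, Selenom, Selenot and Msrb1) and in 13.6% of all 32851 windows of this length, and the CCAAT box in 5 of the 10 and 37.4%. A gene counted if any of its windows held the motif, and Selenop held the TATA box only in the window shown. The TATA matches began at -10 (Selenop), -144 (Selenom), -164 (Selenot) and -241 (Msrb1) from the start. The sequence ACGTG occurred in 4 of the 10 and in 19.6% of windows, and the antioxidant response element core in 1 of the 10 (Selenok) and 12.4%. The windows of Selenow and Dio1 held none of the 6 motifs. Neither ER stress element occurred in any of the 10 genes, against 0.119% and 0.0365% of all windows. These matches describe letters and not binding.

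Liver and colon differed far more than any diet groups. Of the 10 genes, 4 were called different between the tissues by limma, at a fold change over 1.5 and an adjusted p under 0.05: Selenop, Msrb1 and Dio1 were higher in liver and Selenom was higher in colon. Of all 41171 probes tested, 30.4% were called in this comparison. At any fold change 9 of the 10 genes had an adjusted p under 0.05, against 69.6% of probes, and the exception was Selenof. With the slide as a random block (estimated correlation within a slide 0.21), the same 4 genes were called.

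Selenop (chr15:3270767-3280510) had ratios of 0.77 to 2.26 in the 23 livers, with a median of 1.56, and of -1.44 to -0.51 in the 24 colons, with a median of -1.02. Every liver lay above every colon. The difference was 2.49 on the log2 scale, or 5.62-fold (SE 0.089, adjusted p = 3.18e-28). Msrb1 (chr17:24736593-24742778), a methionine sulfoxide reductase that repairs oxidised methionine, ranged from 0.74 to 1.40 in liver and from -1.32 to -0.62 in colon, again with no overlap, and was higher in liver by 1.92 on the log2 scale (SE 0.054, adjusted p = 2.20e-32). Dio1 (chr4:107291465-107307168) ranged from 2.08 to 3.29 in 22 livers and from 1.18 to 2.28 in the colons, so that the lowest livers lay among the highest colons. Its mean was 1.83-fold higher in liver (log2 difference 0.87, SE 0.107, adjusted p = 1.04e-09).

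Selenom (chr11:3514684-3517351), an ER protein with a thioredoxin-like fold, showed the largest difference of the 10 genes. Its ratios lay between -2.91 and -2.10 in liver and between 1.57 and 1.99 in colon. It was 19.7-fold lower in liver than in colon (log2 difference -4.30, SE 0.051, adjusted p = 3.83e-47). The tissues did not overlap for 3 of the 10 genes (Selenop, Msrb1 and Selenom), as for 23.2% of all probes.

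The other ER members, with Selenot taken by its brighter probe, and the 2 small cytosolic and nuclear proteins differed by under 1.5-fold between the tissues. Selenot, an ER protein with a thioredoxin-like fold, had medians of 0.11 in liver and -0.51 in colon and overlapping ranges, with a log2 difference of 0.58 (SE 0.050, adjusted p = 3.47e-14) that is just under 1.5-fold. Its second, dimmer probe gave 1.02 (SE 0.050, adjusted p = 6.83e-23), which passed both thresholds of a call. On that probe the livers (0.46 to 1.28) all lay above the colons (-0.48 to -0.08). The counts of called and of separated genes rest on the brighter probe. The deviations of the 2 probes from the group means correlated at only 0.18 in liver and 0.02 in colon. The 2 probes thus had the same direction between the tissues and did not follow each other among the mice. Selenos, which helps to move misfolded proteins out of the ER, was higher in liver by 0.27 (SE 0.067, adjusted p = 0.00055), and Selenok, its relative in the ER membrane, by 0.25 (SE 0.062, adjusted p = 0.00046). Selenow, a small redox protein of muscle and many other tissues, was lower in liver by 0.23 (log2 difference -0.23, SE 0.071, adjusted p = 0.0038), and the nucleolar protein Selenoh by 0.20 (log2 difference -0.20, SE 0.065, adjusted p = 0.0052). Selenof, a partner of the glycoprotein-folding sensor Uggt1, had a log2 difference of 0.0033 with a 95% interval of -0.14 to 0.15.

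These small differences depended on the colon slides and on the scaling, and the 4 called genes did not lose their direction. Without the 2 colon slides that stood apart, Selenow differed by -0.09 (adjusted p = 0.25), Selenos by 0.12 (adjusted p = 0.088), Selenok by 0.13 (adjusted p = 0.056), Selenoh by -0.35 (adjusted p = 7.65e-07) and Selenof by 0.16 (adjusted p = 0.029), whereas Selenop (2.39), Msrb1 (1.82), Dio1 (1.00) and Selenom (-4.27) stayed called. When each array was centred on its median in place of loess, the median of all probes moved from 0.010 to 0.22, Selenok and Selenos turned to -0.15 and -0.19, Selenof moved to -0.40 and Selenot to 0.15, Selenow (-0.70) and Selenoh (-0.77) were called, and Dio1, at 0.33, was no longer called. With that centring 57.8% of the called probes were higher in liver, against 48.2%.

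**Figure D1:**
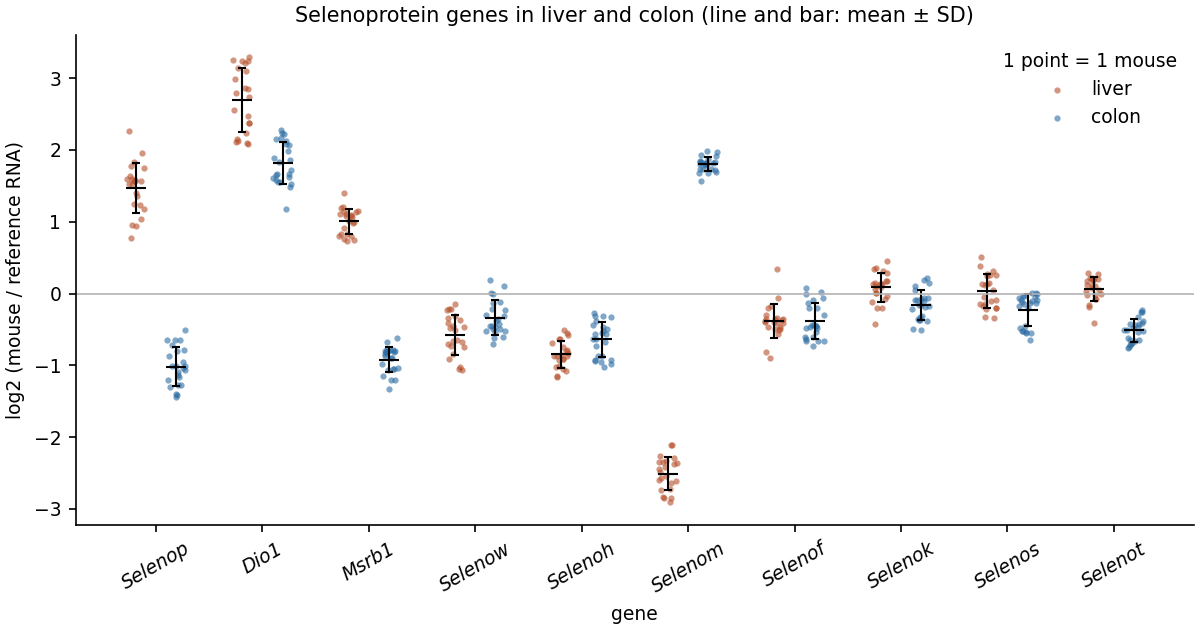
Log2 ratio of mouse over reference RNA (vertical axis) of the 10 genes in 23 livers (22 for Dio1) and 24 colons. Points are mice and black marks are the mean ± SD of the tissue. Selenop and Msrb1 separate with liver above, Selenom with colon above, and the ranges of the other 7 genes overlap (Selenot by its brighter probe).

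Within the colon, the slide was the main source of variation of most of these genes. The 8 mice of the slides of replicates 5 and 6 did not overlap with the other 16 for 5 of the 10 genes, as for 6.14% of all probes with a value in every colon. Selenow had a median of -0.06 on these 2 slides and -0.48 on the other 4, and Selenof -0.07 and -0.51, so both were higher there. Selenos had a median of -0.54 against -0.09, Selenok -0.37 against -0.09 and Selenoh -0.94 against -0.51, so these 3 were lower there. Between 40.3% (Selenom) and 94.7% (Selenos) of a gene's spread around the group means lay between the 6 colon slides, with a median of 60.3% over all probes well above background. In liver the shares ran from 7.6% (Selenof) to 58.6% (Msrb1), and the median over all probes was 40.6%. Since each slide held all 4 diets, this spread is not a diet difference, but it widens the intervals of the colon comparisons that follow.

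**Figure D2:**
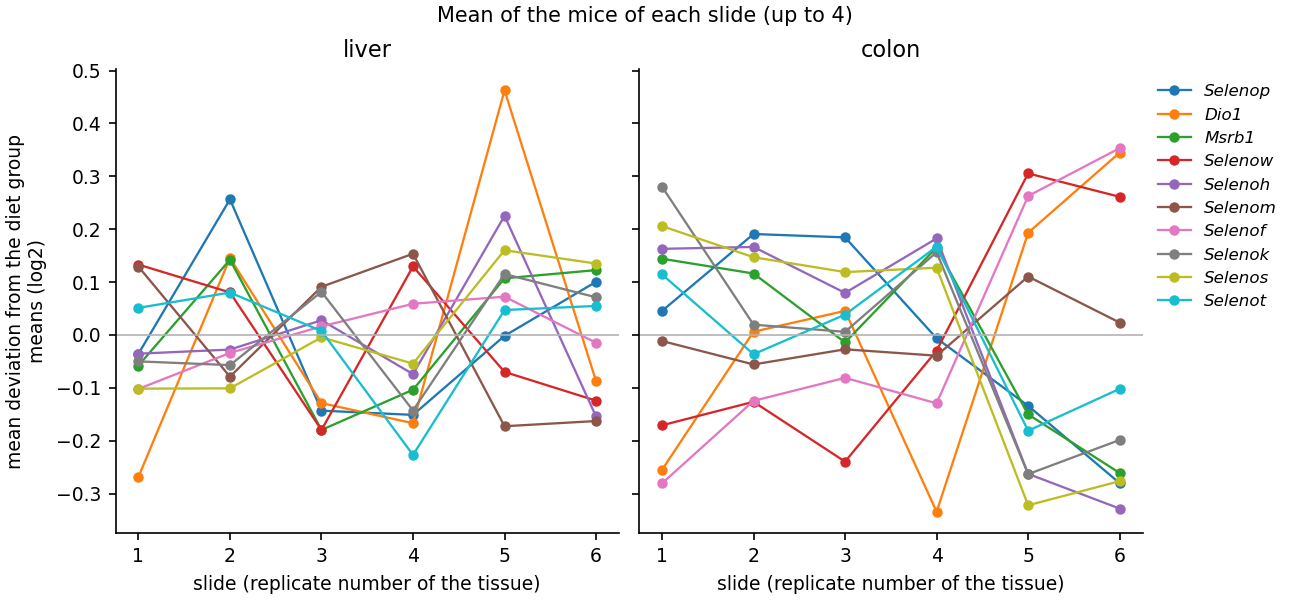
Mean deviation from the diet group means (log2, vertical axis) of the mice on each slide of a tissue (horizontal axis, slide by replicate number), 1 line per gene. On colon slides 5 and 6, Selenow, Selenof, Dio1 and Selenom (only 0.11 and 0.02) lie above 0 and Selenos, Selenok, Selenoh, Msrb1, Selenop and Selenot below it.

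The dam diet was compared as the mean of LH and LL minus the mean of HH and HL, which asks whether the diet of the mother before weaning left a difference at 12 weeks. None of the 10 genes was called by limma in liver or colon, and neither was any of the probes tested (0% in both). The differences of the 10 genes ran from -0.27 to 0.13 in liver, with 4 above 0 and 6 below (52.9% of probes lay below 0), and from -0.08 to 0.02 in colon. At an unadjusted p under 0.05 there was 1 gene in liver, Selenow, against 4.16% of probes, and none in colon, against 2.11%. The 95% intervals reached no farther than 0.49 from 0 in liver (Dio1) and 0.32 in colon on the log2 scale.

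Selenow (chr7:15917208-15922371) had liver ratios of -0.24, -0.51, -0.21, -0.34 and -0.32 in the 5 HH mice. The lowest, median and highest of the 6 mice were -1.02, -0.53 and -0.14 in HL, -1.06, -0.70 and -0.41 in LH, and -1.07, -0.57 and -0.46 in LL. The HH mice lay close together at the upper end, the HL mice spread over the whole range, and all 12 livers from L dams lay below 4 of the 5 HH mice, with overlap at the fifth. The dam diet difference was -0.27 (95% interval -0.48 to -0.07, adjusted p = 0.999 by limma). It was below 0 on all 6 liver slides, between -0.38 and -0.24, where the HH mouse with 2 arrays stands on 2 of the slides. With the slide as a block and 1 array of that mouse it was -0.27 (adjusted p = 0.96). Leaving out single mice gave -0.32 to -0.23, leaving out the mice with Xist -0.24, and median centring -0.21, which no longer passed an unadjusted 0.05. In colon the dam diet difference of Selenow was -0.06 (95% interval -0.26 to 0.14), and the difference between the tissues was -0.21 (95% interval -0.50 to 0.07).

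**Figure D3:**
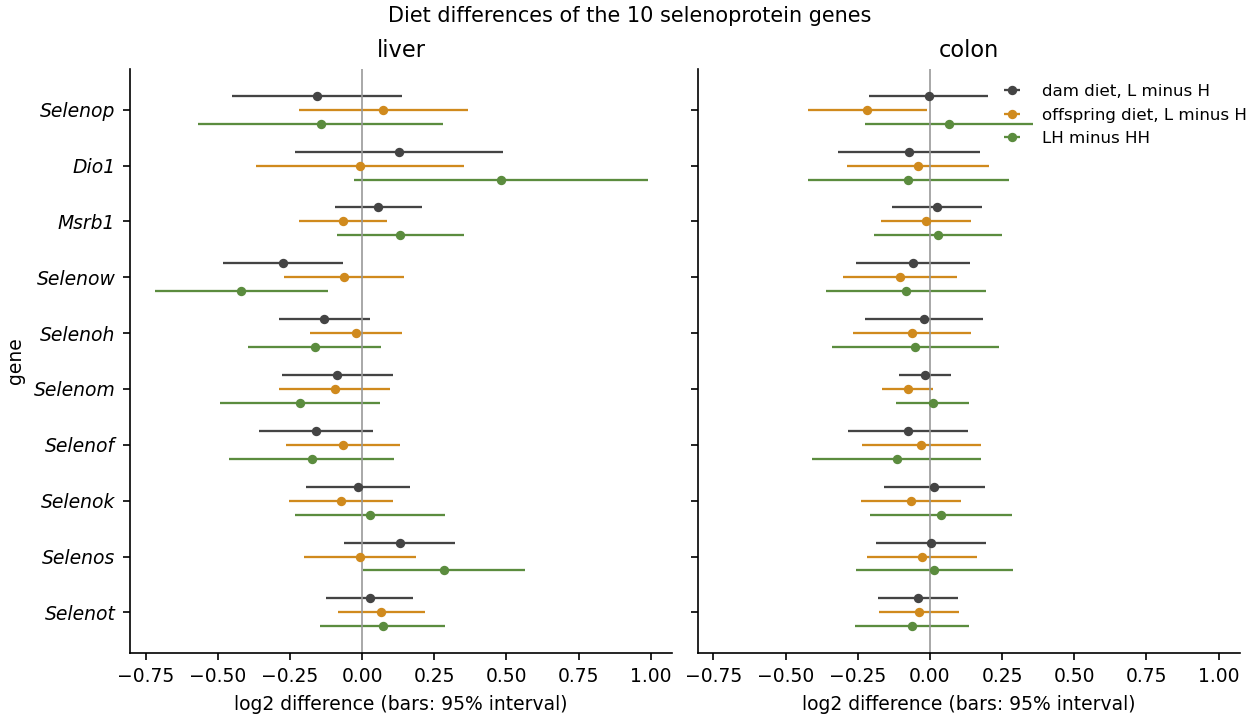
Log2 differences (horizontal axis) of the 10 genes in liver and colon for the dam diet, the offspring diet and LH minus HH, with 95% intervals from limma. The interval excludes 0 for Selenow in liver (dam diet and LH minus HH), Selenos in liver (LH minus HH) and Selenop in colon (offspring diet), and no adjusted p passes 0.05.

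The offspring diet was compared as the mean of HL and LL minus the mean of HH and LH, which asks about the diet eaten after weaning. Again none of the 10 genes and 0% of probes were called in either tissue. In liver the 10 differences ran from -0.10 to 0.07, and none had a p under 0.05, against 1.37% of probes. In colon all 10 genes lay below 0, from -0.22 to -0.01, against 51.7% of probes below 0, and 1 gene, Selenop, had a p under 0.05, against 2.03% of probes. The 10 genes share arrays and slides, so their common sign is 1 observation on 24 mice rather than 10.

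In colon, Selenop had lowest, median and highest ratios of -1.41, -0.89 and -0.51 in HH, -1.28, -1.05 and -0.87 in HL, -1.20, -0.79 and -0.65 in LH, and -1.44, -1.09 and -0.95 in LL. The medians of both groups fed L after weaning were lower than those of both groups fed H, and all 4 groups overlapped. The offspring diet difference was -0.22 (95% interval -0.42 to -0.01, adjusted p = 0.99998 by limma). It was below 0 on 5 of 6 slides, and with the slide as a block its adjusted p was 0.88, when Selenow (-0.10) also passed an unadjusted 0.05. Without the 2 slides that stood apart it was -0.20, without the mice with Xist -0.19, without HH 2 -0.17, with median centring -0.16 and from the Cy3 channel alone, without the reference, -0.09, and none of these passed an unadjusted 0.05. In liver, the main source of the selenoprotein P in blood, the offspring diet difference was 0.07 (95% interval -0.22 to 0.37), and liver minus colon was 0.29 (95% interval -0.07 to 0.65).

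**Figure D4:**
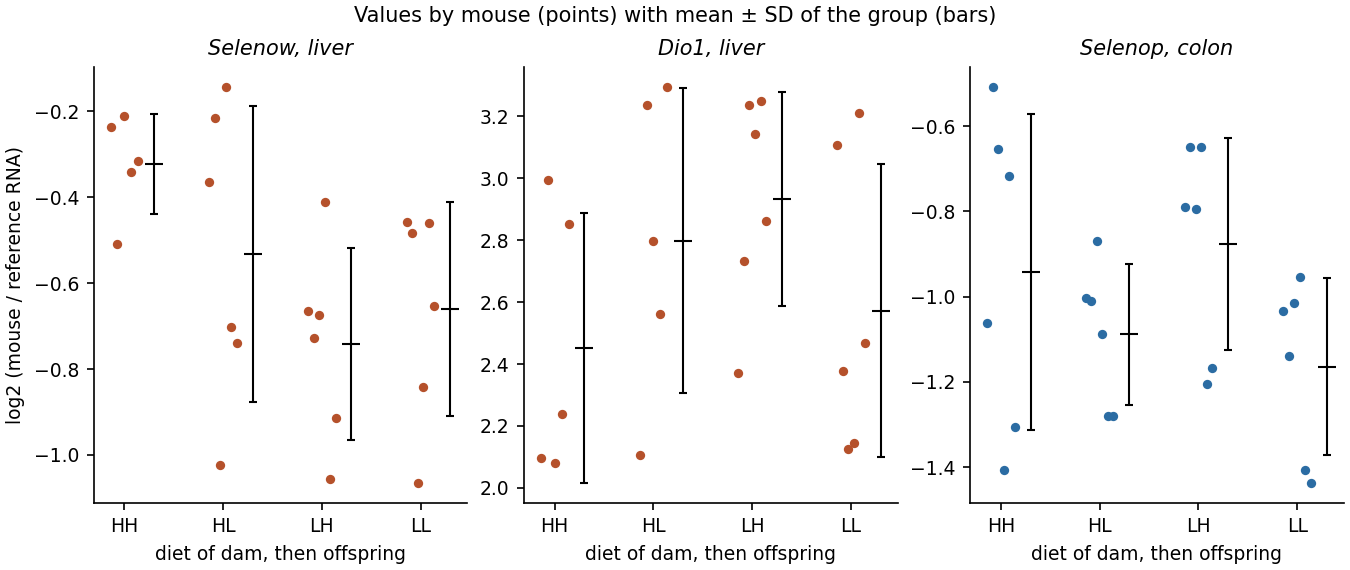
Log2 ratio of mouse over reference RNA (vertical axis) by diet group for Selenow and Dio1 in liver and Selenop in colon. Points are mice and bars are the group's mean ± SD. The HH livers are the closest group for Selenow, and the groups overlap in all 3 panels.

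Against HH, the group with both diets supplemented, LH was the comparison with the largest differences in liver. None of the 10 genes and 0% of probes were called, and 2 genes had a p under 0.05, against 12% of probes. With the slide as a block 28 of 41172 probes were called, none of them from the 10 genes, but that fit took the 2 arrays of one HH mouse as 2 samples, and with 1 array of this mouse no probe was called. Selenow was lower in LH by 0.42 (log2 difference -0.42, SE 0.145, adjusted p = 0.28), on 6 of 6 slides, with differences of -0.48 to -0.36 without single mice. With the slide as a block it was -0.42 (adjusted p = 0.21) with 1 array of that mouse, and median centring gave -0.32, which missed an unadjusted 0.05. Selenos had liver ratios of -0.21, -0.14, 0.26, -0.10 and -0.34 in HH, and a lowest, median and highest of -0.14, 0.20 and 0.38 in LH. Most LH livers lay above 4 of the 5 HH livers, and HH mouse 3 lay within the LH range. The difference was 0.28 (SE 0.135, adjusted p = 0.41), above 0 on 4 of 6 slides, and 0.23 without HH 5 and 0.37 without HH 3. With both arrays of HH mouse 3 as 2 samples it was 0.22, with or without the slide as a block, and with the block and 1 of these arrays it was 0.27 (adjusted p = 0.37). All of these missed an unadjusted 0.05. So did the deposited ratios (0.27), the scanner's processed signals (0.27), the Cy3 channel alone (0.27) and only probes over background (0.28). Its p stayed under 0.05 with the other background treatments, median centring, array weights or only the groups compared, and without the mice with Xist. Among cell type markers in this comparison, 1 of 6 hepatocyte genes was higher and 1 of 4 Kupffer, 1 of 4 immune and 1 of 2 erythroid genes were lower at an unadjusted p under 0.05, and their part in these differences was not tested.

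Dio1 was the most variable of the 10 genes in liver. Its HH ratios were 2.10, 2.99, 2.08, 2.24 and 2.85, the 5 HL mice with a value ran from 2.11 to 3.29 with a median of 2.80, LH from 2.37 to 3.25 with a median of 3.00, and LL from 2.13 to 3.21 with a median of 2.42. HH and LL livers fell into low and high mice within one group, and no pair of groups separated. LH minus HH was 0.48 (95% interval -0.03 to 0.99), and the interaction of the diets was -0.71 (95% interval -1.43 to 0.01, adjusted p = 0.45). With the slide as a block and 1 array of HH mouse 3 these were 0.48 (adjusted p = 0.33) and -0.69 (adjusted p = 0.31), both at an unadjusted p under 0.05. In the interaction none of the 10 genes had a p under 0.05 without the block, against 11.4% of probes in liver and 1.79% in colon.

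The remaining comparisons of groups gave little more. In liver, HL minus HH had no gene of the 10 with a p under 0.05 (4.37% of probes), and LL minus HH had 1 (3.45% of probes), again Selenow, at -0.34 (SE 0.145, adjusted p = 0.99998). It was -0.26 without LL 3 and -0.38 without HH 2, and it missed an unadjusted 0.05 without HH 1, HH 3, LL 3 or LL 4, with median centring (-0.19) and in the Cy3 channel alone (-0.33). LL minus HL and LL minus LH had none (3.08% and 6.38% of probes). In colon, none of the 10 genes had a p under 0.05 in LH minus HH, HL minus HH, LL minus HH, LL minus HL or LL minus LH, against 3.24%, 1.46%, 1.72%, 1.02% and 2.81% of probes. With the slide as a block 2 values passed that limit, Selenop in LL minus LH (-0.29, adjusted p = 0.63), which was below 0 on 6 of 6 slides, and Selenow in LL minus HH (-0.16), below 0 on 5 of 6, against 7.18% and 3.43% of probes. All 10 colon genes lay below 0 in HL minus HH, against 49.4% of probes, a comparison that shares its HL and HH mice with the offspring diet. No 2 diet groups separated for any of the 10 genes in either tissue. Of all probes, the groups separated in liver for 1.54% in LH minus HH, 0.204% in HL minus HH, 0.328% in LL minus HH, 0.109% in LL minus HL and 0.253% in LL minus LH, and in colon for 0.177%, 0.0753%, 0.0364%, 0.0656% and 0.124%. Dam and offspring diet effects did not differ between liver and colon for any of the 10 genes at a p under 0.05, against 3.51% and 1.67% of probes.

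The ER members were set beside 16 genes of ER degradation and stress, a list chosen with earlier results of these data known. In liver LH minus HH, 7 of the 16 were higher and 1 was lower at an unadjusted p under 0.05, against 5.84% and 6.15% of probes, with a median of 0.35 against -0.01 for all probes, and none was called. Vcp, the ATPase that pulls proteins out of the ER membrane and binds Selenos, was higher by 0.40 (SE 0.107, adjusted p = 0.22). Hsp90b1, an ER chaperone, was higher by 0.68 (SE 0.238, adjusted p = 0.28), Edem1, which sends misfolded glycoproteins to degradation, by 0.45 (SE 0.158, adjusted p = 0.28), and Xbp1, the transcription factor of the unfolded protein response, by 0.84 (SE 0.301, adjusted p = 0.29). The 5 ER selenoproteins, with Selenot by its brighter probe, had 3 values above 0 and 2 below, from -0.22 (Selenom) to 0.28 (Selenos), with a median of 0.03. The brighter Selenot probe lay above 0, whereas its dimmer probe was lower in LH (mean 0.66) than in HH (0.79). For the dam diet the dimmer probe was also lower in livers from L dams (0.70) than from H dams (0.79). The 16-gene count was 5 higher and 0 lower without HH 3, and 6 and 0 without LH 4, the liver with adipocyte markers. For the dam diet in liver 4 of the 16 were higher and none lower, against 1.46% and 2.69% of probes, and in colon LH minus HH 1 was higher (Herpud1) and none lower, against 1.89% and 1.35%.

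**Figure D5:**
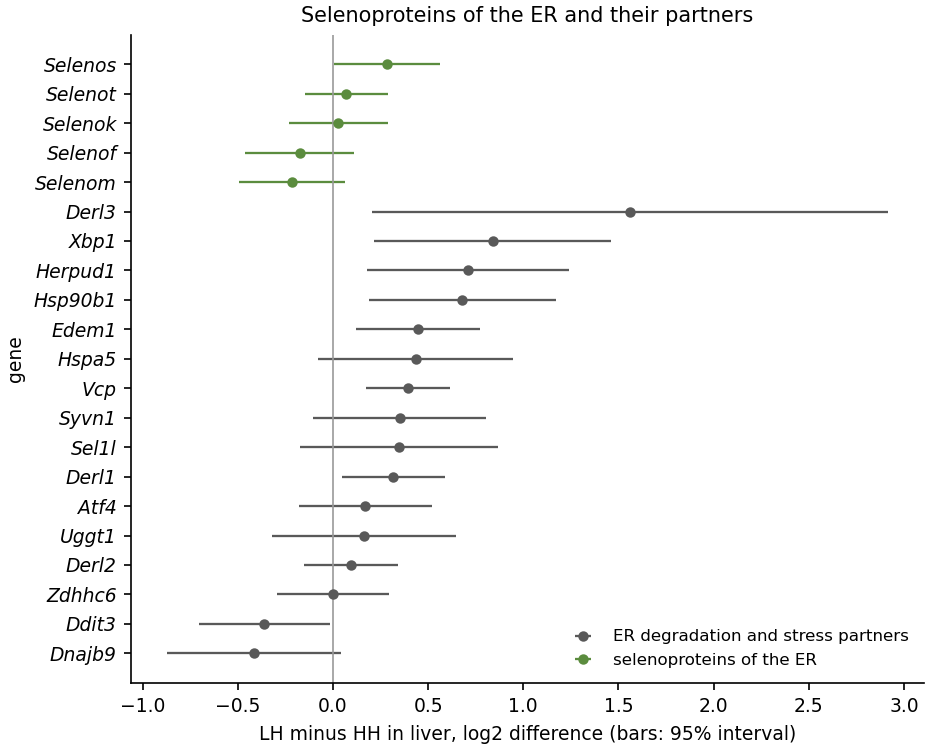
LH minus HH in liver (log2 difference, horizontal axis, with 95% intervals from limma) for the 5 ER selenoproteins and the 16 ER degradation and stress genes. Most of the 16 genes lie above 0 and the 5 selenoproteins lie on both sides of it. No gene passes an adjusted p of 0.05.

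Among 14 other selenoprotein genes, none was called in a diet comparison. In liver LH minus HH, Gpx4, the glutathione peroxidase that reduces lipid hydroperoxides, was lower by 0.60 (log2 difference -0.60, SE 0.129, adjusted p = 0.18), whereas Txnrd3 (0.34, adjusted p = 0.29) and Sephs2, which makes selenophosphate (0.57, adjusted p = 0.39), were higher, each at an unadjusted p under 0.05. At the same thresholds, the paper reports changed liver probes for HH against LH, HL and LL and for LH against LL, and none for HL against LL. The paper counts 6 animals in each group, whereas 5 HH livers are counted here. It names Gpx4 as the only selenoprotein gene that was sensitive to the restriction. The reason for this difference from the calls here was not tested. Among 12 genes of selenium handling and selenocysteine insertion, Sepsecs, the last enzyme of selenocysteine synthesis, was higher by 0.36 in LH (adjusted p = 0.29), and in the colon offspring diet comparison Secisbp2 and Lrp8, a receptor of selenoprotein P, were higher by 0.13 and 0.14 at an unadjusted p under 0.05 (0.862% of probes were higher). Between the tissues, 6 of the 14 were called higher in liver and 2 lower, and 6 and 2 of the 12, against 14.6% and 15.7% of probes. Gpx1 (2.44, adjusted p = 1.46e-36), Sephs2 (2.90, adjusted p = 1.08e-27) and the selenocysteine lyase Scly (2.54, adjusted p = 3.54e-35) were higher in liver, like Selenop, and Gpx2, the gut glutathione peroxidase, was lower (-4.27, adjusted p = 9.82e-41), like Selenom. Of 8 genes of thyroid hormone action set beside Dio1, none was called in liver LH minus HH, where the bile acid transporter Slc10a1 was higher by 0.83 (adjusted p = 0.16) at an unadjusted p under 0.05.

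The spread between mice of a group differed among the 10 genes. The SD within groups was highest for Dio1 (0.44 in liver, 0.31 in colon) and Selenop in liver (0.36), and lowest for Selenom in colon (0.095), beside medians of 0.17 in liver and 0.16 in colon over all probes. The 2 arrays of the same HH liver differed by 0.02 (Selenom) to 0.22 (Selenot), with a median of 0.11 over all probes. For Dio1 and Selenop these 2 arrays differed by 0.18 and 0.12.

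How the genes moved together from mouse to mouse differed between the tissues, and these correlations are descriptions, since all genes share the arrays. With the group means removed, 34 of the 45 pairs correlated above 0 in 23 livers (22 for Dio1) and the median was 0.19, led by Selenop with Selenof (0.67). In 24 colons the median was -0.35, with Selenok and Selenos at 0.89 and Selenof and Selenos at -0.92. When the slide was removed as well, the colon values lay between -0.61 and 0.73, with 2 pairs above 0.5 in place of 13, whereas the liver value of Selenop with Selenof was 0.83 and 9 pairs lay above 0.5 in place of 7. The gene most like Selenok over the livers was Selenok-ps1 (0.85 over 23 mice), a pseudogene of Selenok, and a signal shared by the 2 probes was not tested. Over the livers the genes most like Selenow were the histone genes H4c4 (0.89) and H4f16 (0.83), those most like Selenom were Asb4 (0.90) and Cavin3 (0.89), and that most like Dio1 was Abhd14b (0.87 over 22 mice). In colon the nearest genes reached 0.96 for Selenow (Maf1) and 0.96 for Selenof (Tpp1), where 86.5% and 91.3% of the spread of Selenow and Selenof lay between slides.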

How the data were processed

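Liver and colon RNA was hybridised on 48 two-colour Agilent arrays of 12 slides. The authors deposited each array's scanner output, which per the file headers comes from Feature Extraction 10.10.1.1, and from it the unnormalized median spot and background intensity of both dyes was used. A second deposited file holds log2 values, one column per array, in the opposite direction (reference over mouse). It matched loess without background correction (r of at least 0.9997 on each array), and the submitters' notes name limma and R 3.0.2. Here the direction is mouse over reference. Local background above a spot's own signal (32 to 639 spots per array) was replaced by the array's median background, because such spots otherwise narrowed the ratios of some arrays. This was followed by normexp (offset 50), global loess within arrays and averaging of spots per probe, without spots that failed the scanner's quality calls (102 to 261 per array).

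Groups came from the labels. Values of each tissue were fitted to the 4 diet groups, and the tissues were compared in a fit of 8 groups (R 4.3.3, limma 3.58.1, moderated test, two-sided, Benjamini-Hochberg over all probes). A call needed a fold change over 1.5 and an adjusted p under 0.05, as in the study's methods. The labels do not tie livers to colons of the same mouse or mice to litters, so p-values measure the spread between these mice only. The number of arrays limits the precision. Arrays of one slide deviated together in colon (36 of 36 pairs with r over 0.1, median 0.43) and less so in liver (21 of 36, median 0.20), so the fit with the slide as a block is given where it bears on a result. In liver this block kept the 2 arrays of one HH mouse, which lie on 2 slides, as 2 samples, and it was run again with only the first of them. Differences within slides use both arrays. Elsewhere the averaged mouse was placed on the slide of its first array. Selenot is described by its brighter probe. Genes were named by fixed lists and by an unadjusted p under 0.05, and the 3 nearest genes by Pearson's r. Members and lists were chosen with earlier results of these data known. The fitting was tested on simulated data. Alternatives tried were other background corrections and centrings, the deposited ratios, the Cy3 channel alone, the slide as a block, array weights, only probes over background, only the groups compared, and leaving out single mice, mice with Xist or the 2 colon slides that stand apart. The last, the block with 1 array per mouse and the slide as a random block between tissues (duplicateCorrelation in limma) were chosen after seeing the data. Some named genes of these lists are not reported here.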

Additional observations from a re-analysis of the deposited data

Results flagged for a closer look

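Of 80 groups of a gene, tissue and diet tested, 3 held a mouse whose gap to the others exceeded the 95% limit of Dixon's test, and chance alone marks about 1 in 20 groups. Selenof was 0.346 in liver HH 3, the mouse measured on 2 arrays (0.38 and 0.31), where the other 4 HH mice lay between -0.50 and -0.36. Selenof was -0.894 in liver LL 3, below the rest of its group. Selenom was 1.99 in colon LH 6, on 1 of the 2 colon slides that stood apart, above the rest of its group.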

How the results depend on the processing

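None of the 10 genes was called in any diet comparison under any alternative run, leave-one-out fits included, and the 4 calls between liver and colon became 9 at an adjusted p under 0.05 with no fold threshold. Between the tissues, Selenow reversed to 0.011 in the Cy3 channel alone, and Selenok and Selenos reversed to -0.15 and -0.19 with median centring, which shifted all probes by 0.22 against 0.010. The cause was not tested. Selenot, just under the fold threshold by its brighter probe, was called in 9 of 47 leave-one-out fits, so that 4 to 5 genes were called without single mice. It was also called in the Cy3 channel alone (0.82) and with both arrays of one HH mouse as 2 samples (0.59). Dio1 lost its call with median centring (0.33), and Selenow (-0.70) and Selenoh (-0.77) gained one. In the diet comparisons every difference with an unadjusted p under 0.05 kept its direction. The unadjusted p of Selenos in liver LH minus HH and of Selenop in the colon offspring diet comparison rose above 0.05 in many leave-one-out fits. Their differences ranged from 0.23 to 0.37 and from -0.26 to -0.17. The slide as a replicate block left all counts of called genes at 0 in the diet comparisons, also with 1 array of the HH mouse that has 2. Over all probes the diet comparisons had 0 calls, but in liver LH minus HH 28 probes were called with that block and both arrays of this mouse, 0 with the block and 1 array, 17 with only the groups compared, 6 with both arrays as 2 samples and no block, 3 with array weights and up to 2 without single mice (HL 4 or LL 4), and in the liver interaction 3 with the block, 4 with the block and 1 array and 19 with array weights, none of them from the 10 genes. Between the tissues a slide lies within a tissue, so it entered as a random block, which left 4 genes called. The number of arrays and the dim second probe of Selenot limit what these values show.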
